A study of Oryza sativa with 4 samples.

Results

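ACA1 and ACA7 are rice calcium ATPase genes whose levels differed between OsCPK21-silenced and control spikelets at different stages of anther development. ACA1 was bright in control spikelets at stage 12 and close to the floor in silenced ones, and ACA7 was brightest in silenced spikelets at stage 9. Each gene was found by its symbol or synonym, with or without the prefix Os, and each was read by 1 probe set, so there were 2 members among the 17905 genes on the array. They are 2 of the 5 ACA genes with a probe set here. The members were chosen by their measured signals: their ratios between genotypes at stage 12 (ACA1) and stage 9 (ACA7) had already been seen, so those ratios are a description and support nothing further.

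Calcium ATPases of the ACA type, called P2B pumps, use ATP to move calcium out of the cytosol, across the plasma membrane or into the vacuole or endoplasmic reticulum, and so end a calcium signal. Their amino-terminal tail holds the pump inactive until calmodulin, loaded with calcium, binds to it. In Arabidopsis, ACA9 is a pump of the pollen plasma membrane that pollen tubes need for growth and fertilization, and the calcium-dependent kinase CPK1 lowers the activity of ACA2 by phosphorylating its tail. The numbers of the rice and Arabidopsis genes were given separately, so a shared number does not mark counterparts.

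RNA came from whole spikelets of field-grown rice without treatment, and 4 samples were read on 1 Affymetrix Rice Genome Array each. ZH11 is a japonica rice cultivar used as the control, and the RNAi plants carry a construct in the ZH11 background that silences OsCPK21 by RNA interference. According to the labels there were 3 RNAi lines, and pooling of their RNA is not given in the sources used here. Both genotypes were sampled at anther stage 9, when young microspores are free of the tetrad, and at stage 12, when pollen matures. The promoter of the construct is not given in the sources used here. With 1 array per group there is no replicate spread and no test, and the small number of arrays limits how precise any value is.

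Groups followed the titles, since the genotype characteristic names the other genotype on all 4 samples. OsCPK21, a calcium-dependent protein kinase, had signals at stage 9 of 1939.6 (ZH11) and 206 (RNAi), and at stage 12 of 2719 (ZH11) and 17.6 (RNAi). It was low on both arrays titled RNAi, so the target gene went with the titles. If the characteristic were right, every direction between genotypes given here would turn. All 12 floral organ identity genes looked for (MADS1 among them) were above the floor on every array, with signals from 108.6 upward, so the material had the marks of spikelets. The floor was set at 71.1, and any signal under it took this value in ratios. A gene is called higher or lower where its ratio reached 2-fold and 1 of the arrays compared or both exceeded the floor. A ratio with the dimmer array at or below the floor is a bound, written "at least".

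ACA1 (LOC4326507) was bright on 1 array of 4. Its signal was 55.1 in ZH11 and 37.3 in RNAi at stage 9, both below the floor, so no fold is given there. At stage 12 its signal was 3751 in ZH11 and 78.9 in RNAi. The ZH11 stage 12 array stood far above the other arrays, and RNAi at stage 12 lay at 1.11 times the floor and at 2.10% of the ZH11 signal.

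ACA1 was thus 47.5-fold lower in RNAi than in ZH11 at stage 12, a log2 ratio of -5.57. In that comparison 7.03% of 15966 genes were lower, counting those that exceeded the floor on 1 array or both, and the median log2 ratio of all of them was 0.02. ACA1 ranked at place 94 from the lowest ratio, and OsCPK21 at place 117. The OsCPK21 ratio is a bound, at least 38.3-fold lower, since its RNAi signal of 17.6 was raised to the floor. These places thus do not show which gene fell further. Among the 3516 genes whose mean log2 signal over both arrays was within 0.5 of that of ACA1, the percentiles 5 and 95 of the log2 ratio were -2.15 and 0.77. ACA1 lay below that range and was chosen on this ratio. With the floor 2 times as high, the RNAi signal fell below it and the log2 ratio became a bound of -4.72.

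Between stages, ACA1 was at least 52.8-fold higher at stage 12 than at stage 9 in ZH11, where 17.1% of 16378 genes were higher. With the floor 2 times as high that bound went from a log2 ratio of 5.72 to 4.72. In RNAi the log2 ratio of stage 12 over stage 9 was 0.15, a bound, since the stage 9 signal was below the floor. With 16 added to each signal in place of the floor, that log2 ratio was 0.83, so its size depends on how low signals are treated. The comparison in ZH11 shares the ZH11 stage 12 array with the comparison of genotypes, so 1 bright array set both values.

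**Figure D1:**
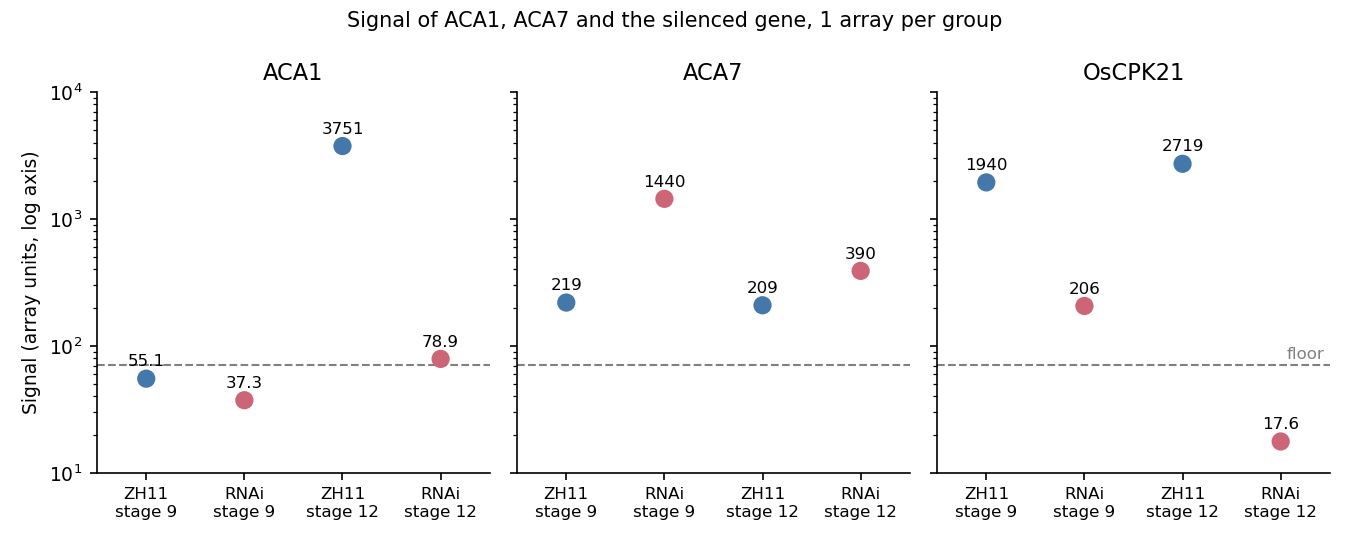
Signal (array units, log axis) of ACA1, ACA7 and the silenced gene OsCPK21 on the 4 arrays; each point is 1 array, blue for ZH11 and red for RNAi, and the dashed line is the floor of 71.1. ACA1 stood at 3751 in ZH11 at stage 12 and below 79 on the other arrays, ACA7 was brightest in RNAi at stage 9, and OsCPK21 was low in both RNAi arrays.

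Markers of late pollen moved with ACA1. The 5 on the array were the beta-expansins EXPB9 and EXPB10, the actin-depolymerizing factor ADF1 and the sugar transporters SWEET5 and MST5. All were higher at stage 12 than at stage 9 in ZH11, where 17.1% of all genes above the floor were higher. All were lower in RNAi than in ZH11 at stage 12, where 7.03% of all genes were lower. The summed signal of the 5 markers was 281 in ZH11 and 303 in RNAi at stage 9, and 38380 in ZH11 and 306 in RNAi at stage 12. EXPB9, EXPB10 and MST5 were below the floor in RNAi at stage 12, and ADF1 and SWEET5 had signals of 105 and 111. These markers were chosen with earlier results of these data known, so their going with ACA1 supports nothing further. Other late pollen genes looked for were not matched by name. In whole spikelets, fewer pollen cells and less RNA per cell cannot be told apart, and the part of the pollen markers in the ACA1 value was not tested.

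The tapetum is the inner anther layer that feeds young pollen. Of 10 tapetum genes measured, 9 were above the floor at stage 12, where RTS and OsC6 were lower and RAFTIN1 was higher in RNAi. Over all genes 7.03% were lower and 2.85% higher in that comparison. RTS, which fertile pollen needs, ran as ACA1 did, with signals at stage 9 of 79.3 in ZH11 and 68.6 in RNAi, and at stage 12 of 1603 and 75.7. It was 21.2-fold lower in RNAi at stage 12. The rest of the tapetum list did not follow ACA1 by stage. In ZH11, RTS was the 1 gene of 10 that was higher at stage 12 than at stage 9, and the other 9 were lower. The shares of all genes in that comparison were 17.1% higher and 15.7% lower. The summed tapetum signal at stage 12 was 3227 in ZH11 and 3446 in RNAi. These close sums do not show an unchanged tapetum list, since genes that moved in opposite directions make up much of them. RTS gave 1603 of the ZH11 sum and had 75.7 in RNAi. RAFTIN1 gave 2149 of the RNAi sum and had 199 in ZH11.

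The floral organ and green tissue markers held no gene past 2-fold between genotypes at stage 12. The summed signal of the 12 floral organ identity genes was 61004 in ZH11 and 65060 in RNAi at stage 12. That of the 4 green tissue genes, such as RBCS of Rubisco, was 6994 and 7515 in the same order. The array in RNAi at stage 12 had the lowest median signal, 75.2 against 81.7 to 85.0 on the other arrays. The ratio of 3-prime to 5-prime signal of the actin control, which speaks to RNA integrity, stood at 3.89 and 4.20 at stage 9 and at 10.3 and 8.53 at stage 12, in ZH11 and RNAi. That of the GAPDH control stood at 1.96 and 2.50 at stage 9, in the same order, and at 3.48 on both arrays at stage 12. Both controls had higher ratios at stage 12, so they differ along with stage in every stage comparison here, and their part was not tested.

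ACA7 (LOC4348639) was above the floor on all 4 arrays and brightest in RNAi at stage 9. Its signal was 219 in ZH11 and 1439.8 in RNAi at stage 9, and 209 in ZH11 and 389.6 in RNAi at stage 12. Both ZH11 arrays lay close together at about 3 times the floor, and both RNAi arrays lay above them. The next brightest array, RNAi at stage 12, had 27.1% of the brightest signal.

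At stage 9 ACA7 was 6.57-fold higher in RNAi, a log2 ratio of 2.71. In that comparison 3.28% of 15358 genes were higher, the median log2 ratio of all of them was -0.04, and ACA7 ranked at place 73 from the highest. Among the 3146 genes within 0.5 of its mean log2 signal, the percentiles 5 and 95 of the log2 ratio were -0.66 and 0.74. ACA7, chosen on this ratio, lay above that range. At stage 12 its log2 ratio was 0.90, 1.87-fold and short of 2-fold, where 2.85% of 15966 genes were higher. That value passed 2-fold with all arrays brought to 1 median (log2 1.06) and after quantile normalization (1.04). The median log2 ratio of genes above the floor on both stage 12 arrays went from 0.03 to 0.18 and 0.16 under these scalings.

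ACA7 hardly changed with stage in ZH11, with a log2 ratio of stage 12 over stage 9 of -0.07. In RNAi it was 3.70-fold lower at stage 12 than at stage 9, where 15.8% of 16056 genes were lower. The stage comparison in RNAi shares the bright RNAi stage 9 array with the comparison of genotypes at stage 9.

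From stage 9 to stage 12 the genotype ratio of ACA7 went down, and the stage 12 log2 ratio minus the stage 9 one was -1.81. Over the 16625 genes above the floor on any array this difference had a median of 0.04, with the percentiles 5 and 95 at -1.64 and 1.07. It holds the stage 9 ratio on which ACA7 was chosen, so its place among all genes says nothing further. No such difference is given for ACA1, since both of its stage 9 signals were below the floor.

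Tapetum markers also differed between genotypes at stage 9, where ACA7 was high in RNAi. Of 10 tapetum genes measured, 5 were lower in RNAi at stage 9: AP25, EAT1, CP1, RAFTIN1 and OsC6. PTC1, a regulator of tapetum development, was higher. Of all genes above the floor, 2.27% were lower and 3.28% higher in that comparison. The summed signal of the 10 genes was 49072 in ZH11 and 29422 in RNAi, and OsC6, CP1 and RTS were below the floor in RNAi. RTS was near the floor in ZH11 too and was not called lower, with a log2 ratio of -0.16, a bound. At stage 9, 4 of the 5 late pollen markers were below the floor in ZH11 and in RNAi, and SWEET5 was above it in both. The part of the tapetum in the ACA7 value was not tested.

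By their brightest probe sets, the other 3 ACA genes matched by name differed little between genotypes. ACA5 had signals of 1254 for ZH11 and 1322 for RNAi at stage 9, and of 2606 and 2202 at stage 12. Its log2 ratios between genotypes were 0.08 and -0.24, and in ZH11 it was 2.08-fold higher at stage 12 than at stage 9. The brightest probe set of ACA10 had signals of 1499 and 1508 at stage 9, and of 675 and 739 at stage 12, in ZH11 and RNAi. Its genotype log2 ratios were 0.01 and 0.13, and it was lower at stage 12 in both genotypes, 2.22-fold in ZH11, where 15.7% of 16378 genes were lower, and 2.04-fold in RNAi. With the mean of its probe sets ACA10 fell short of 2-fold in both genotypes, and in RNAi it also did so under median scaling and quantile normalization. A second ACA10 probe set ran the same way with genotype log2 ratios of 0.05 and 0.32, and the remaining one was below the floor on all arrays.

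The probe sets of ACA8 disagreed. The brighter one had signals of 1151 for ZH11 and 1123 for RNAi at stage 9, and of 899 and 1063 at stage 12, with genotype log2 ratios of -0.04 and 0.24. The dimmer one had signals of 62.4 for ZH11 and 267.6 for RNAi at stage 9, and of 58.6 and 86.8 at stage 12. It was above the floor in RNAi alone and at least 3.77-fold higher there at stage 9, the same array on which ACA7 was brightest. With the brighter probe set standing for ACA8, 1 of the 4 ACA genes above the floor at stage 9 was higher in RNAi and none was lower, and at stage 12 none of 5 was higher and 1 was lower. The shares over all genes were 3.28% higher and 2.27% lower at stage 9, and 2.85% higher and 7.03% lower at stage 12, and the called ACA genes were the members chosen for these ratios. Without ACA1 and ACA7 none of the other 3 passed 2-fold between genotypes at either stage. ACA9 had no probe set with a single gene in the annotation used here.

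**Figure D2:**
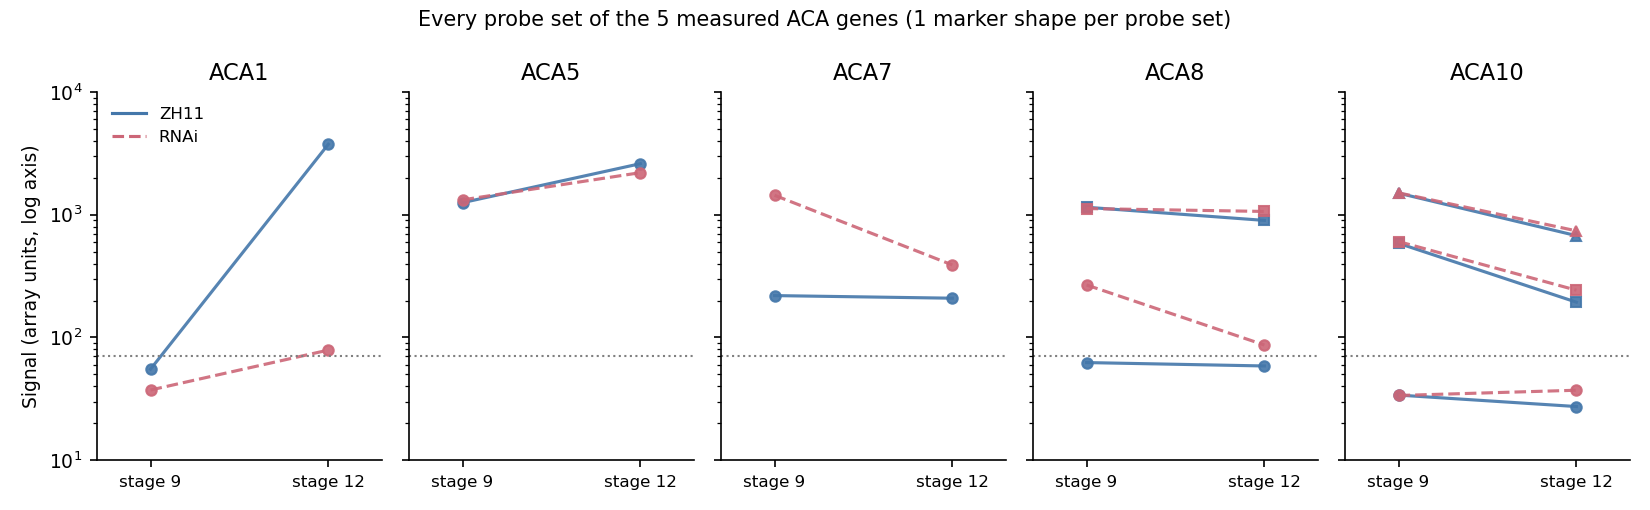
Signal (array units, log axis) of every probe set of the 5 measured ACA genes at stages 9 and 12; solid blue lines are ZH11, dashed red lines are RNAi, 1 marker shape stands for 1 probe set and the dotted line is the floor. The genotypes part at stage 12 in ACA1, at stage 9 and less so at stage 12 in ACA7, and at stage 9 in the dimmer probe set of ACA8. They run together in ACA5 and ACA10.

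Genes that work beside the pumps were looked for by symbol, and 18 of 22 matched genes were on the array, ACA genes included. They were calcium exchangers, calcium channels, calmodulins and other P-type ATPases, the wider family to which ACA pumps belong. No gene of the P2A (ECA) pump type was matched. At stage 9, ACA7 was higher and HMA5 lower among the 15 above the floor, and the median log2 ratio was -0.04. At stage 12, ACA1 was lower and none was higher among 17, with a median of 0.11. Over all genes 3.28% were higher and 2.27% lower at stage 9, and 2.85% higher and 7.03% lower at stage 12, and apart from the chosen members HMA5 was the one listed gene called.

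Calcium exchangers, which move calcium out of the cytosol by letting other ions flow the other way, stayed within 2-fold between genotypes. The 4 above the floor had log2 ratios from -0.39 to 0.27 at stage 9 and from -0.21 to 0.50 at stage 12. CAX1a, with the highest of these at stage 12, had signals of 738 in ZH11 and 1044 in RNAi. CAX3 was lower at stage 12 than at stage 9 in both genotypes, 2.96-fold in ZH11 and 2.11-fold in RNAi, the latter short of 2-fold under median scaling and quantile normalization. CAX1b was below the floor on all arrays.

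The channels TPC1 and GLR3.1, a glutamate receptor-like protein, had log2 ratios between genotypes of 0.08 and 0.57 at stage 9 and of 0.13 and 0.18 at stage 12. The 2 probe sets of GLR3.1 differed at stage 9, with log2 ratios of 0.57 and -0.05. Calmodulins, the activators of ACA pumps, were bright on all arrays. CAM1 had signals of 4025 for ZH11 and 4278 for RNAi at stage 9, and of 3904 and 2060 at stage 12, a log2 ratio of -0.92 that fell short of 2-fold. CAM2 and CAM3 had log2 ratios of -0.47 and -0.02 at stage 12, and all 3 were between -0.19 and 0.09 at stage 9.

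HMA5, a copper pump of the P-type family, had signals of 288 for ZH11 and 89.0 for RNAi at stage 9, and of 441 and 272 at stage 12. It was 3.24-fold lower in RNAi at stage 9, and its log2 ratio at stage 12 was -0.70. In RNAi it was 3.06-fold higher at stage 12 than at stage 9, where 14.9% of 16056 genes were higher, but it was not called higher with the floor 2 times as high. HMA4, another metal pump, had log2 ratios of -0.39 and 0.30. HMA2 was above the floor in ZH11 at stage 12 alone, with a signal of 95.5 there.

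**Figure D3:**
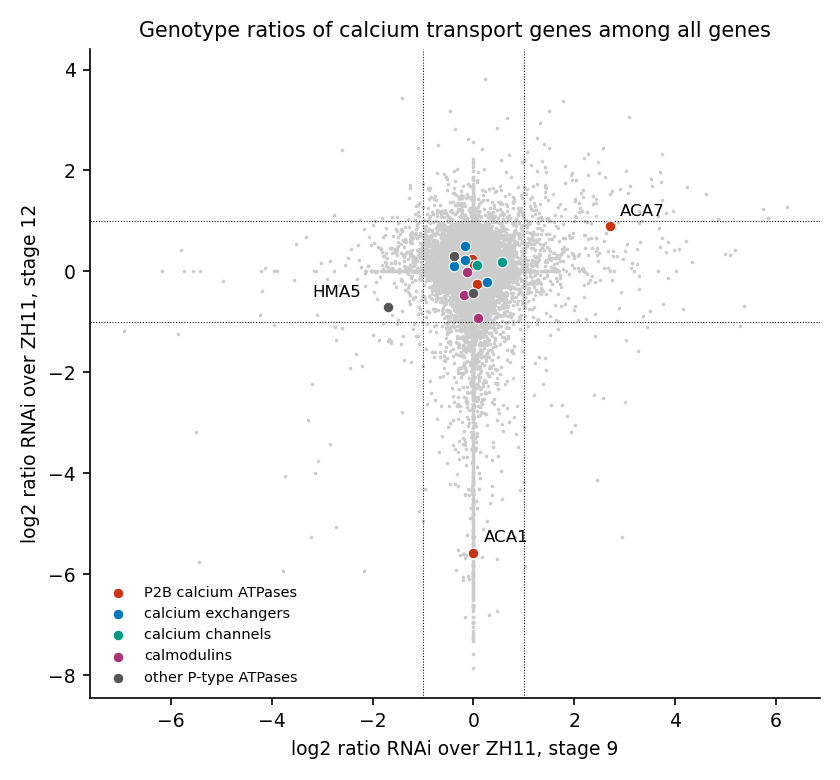
Log2 ratio of RNAi over ZH11 at stage 9 (x axis) and stage 12 (y axis) for the 16625 genes above the floor on any array (grey), with the ACA genes, calcium exchangers, channels, calmodulins and other P-type ATPases in colour; dotted lines mark 2-fold. ACA1 lies at a stage 12 ratio of -5.57, ACA7 at a stage 9 ratio of 2.71 and HMA5 at -1.69, and the other coloured genes lie within 2-fold on both axes.

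The genes nearest to each pump in pattern were ranked by the root mean square distance, over the 4 arrays, between log2 signals after each gene's mean had been subtracted. Distances ran over 16624 genes, of which 2341 had a name, and with 4 arrays they are a description only. Nearest to ACA1 among the named genes were ADF9, an actin-depolymerizing factor (distance 0.07), KAO (CYP88A5), an oxidase of gibberellin synthesis (0.09), and VLN4, an actin-bundling villin (0.10). BGLU38, of the beta-glucosidase family (0.10), and CIPK5, a kinase that works with calcium sensors of the CBL type (0.12), came next. Counting unnamed genes, 23 genes lay as near as CIPK5 or nearer.

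All 5 were bright in ZH11 at stage 12 alone. Their signals there ran from 3790 (ADF9) to 4141 (BGLU38), and in RNAi at stage 12 from 10.6 (ADF9) to 96.2 (CIPK5), the latter the only one above the floor. CIPK5 was 42.3-fold lower in RNAi at stage 12. VLN4 had a dimmer second probe set that was at least 12.2-fold lower. Since the low arrays sit at the floor, a small distance here mostly says that the ZH11 stage 12 signals were alike, and with a pseudocount in place of the floor 2 of the 5 remained among the nearest, KAO and CIPK5.

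Nearest to ACA7 were OsPM19L1, a membrane protein (distance 0.03), MYB4, a transcription factor of cold responses (0.16), and 4CL5, a ligase of phenylpropanoid synthesis (0.25). HSF07, a heat stress transcription factor (0.27), and OsPP2C35, a protein phosphatase (0.32), followed, and 13 genes in all lay as near as the last. MYB4 had signals of 865 for ZH11 and 5198 for RNAi at stage 9, and of 1021 and 1555 at stage 12. HSF07 had signals of 341 and 3369.9 at stage 9, and of 378 and 562 at stage 12.

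As with ACA7, the RNAi stage 9 array was the brightest for each of the 5 genes and RNAi at stage 12 was second. 4CL5 was 4.78-fold higher in RNAi at stage 9 and had a log2 ratio of 0.97 at stage 12. OsPP2C35 was higher at both stages, 4.50-fold and 2.77-fold. OsPM19L1 was below the floor in ZH11 at both stages, so its small distance depends on where the floor is set. Its second probe set was below the floor on all arrays. With the floor 2 times as high, and with the mean of a gene's probe sets, OsPM19L1 left the 5 nearest and JAZ10 came in. The second probe set of MYB4 was 4.21-fold higher in RNAi at stage 9 and had a log2 ratio of -0.14 at stage 12. The dimmer ACA8 probe set lay at a distance of 0.37 from ACA7, and the brighter one at 1.07.

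**Figure D4:**
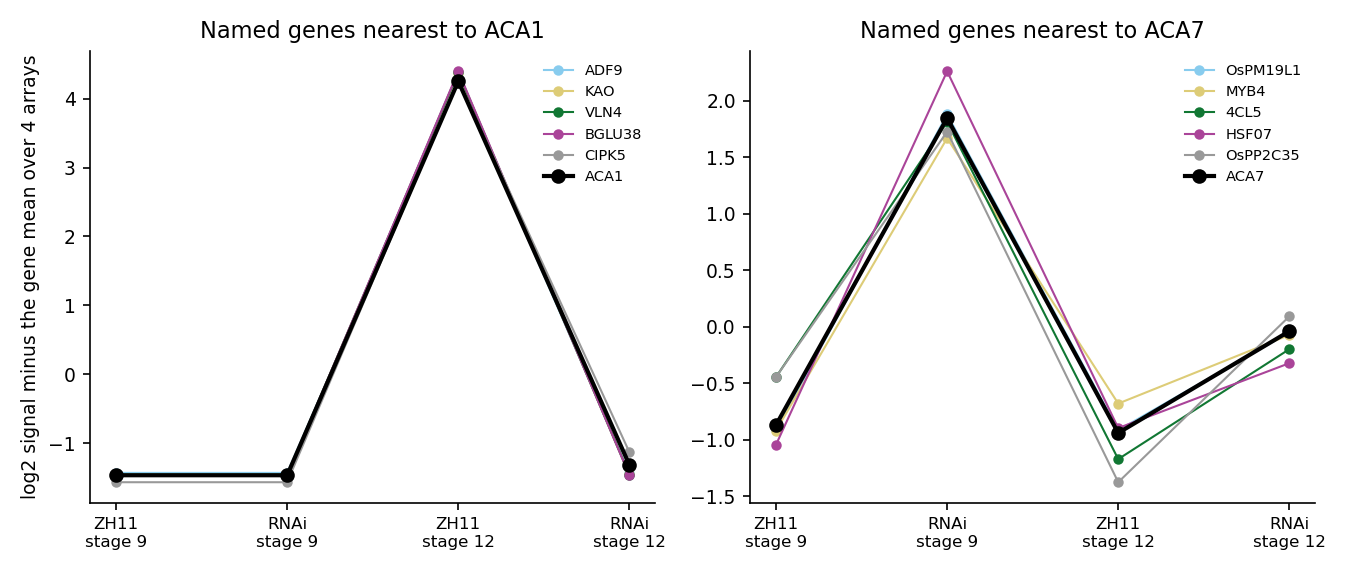
Log2 signal minus the gene's mean over the 4 arrays for ACA1 (left) and ACA7 (right) in black, with the 5 named genes nearest to each in colour; lines join arrays only to guide the eye. The ACA1 panel peaks in ZH11 at stage 12 and the ACA7 panel in RNAi at stage 9, and ADF9 and OsPM19L1 are mostly hidden behind the black lines.

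Between genotypes, the main probe sets of genes next to the pumps in the genome did not show the same patterns. The gene that follows ACA1 and overlaps its end in the RefSeq annotation of assembly ASM3414082v1, LOC4326508, had signals from 109.1 to 127.5 on all arrays. The nearest measured gene before ACA1, LOC4326505, had genotype log2 ratios of 0.02 at both stages by its brighter probe set. Its dimmer probe set had signals of 214 for ZH11 and 215 for RNAi at stage 9, and of 711 and 219 at stage 12, and so was 3.25-fold lower in RNAi at stage 12, as ACA1 was lower there. The genes measured on either side of ACA7, LOC4348638 and LOC4348643, had genotype log2 ratios of 0.48 and -0.03 at stage 9 and of -0.17 and -0.05 at stage 12. In RNAi, LOC4348638 was 3.57-fold lower at stage 12 than at stage 9, much as ACA7 was, where 15.8% of 16056 genes were lower. In ZH11 it was 2.27-fold lower, where 15.7% of 16378 genes were lower and ACA7 hardly changed.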

How the data were processed

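Each probe set has 1 deposited intensity per array, linear and always positive. MAS5 made these signals, per the submitters' processing notes. Which version, target intensity and present calls it used is not given in the sources used here. Of 57381 probe sets, 123 were controls. The platform annotation gave 1 gene for 22436, several for 95 and none for 34727, and only the first kind was used, for 17905 genes. Names came from the RefSeq gene table of assembly ASM3414082v1.

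The floor was the mean of the 4 trimmed mean signals (2% left out at each end, 333 to 367) divided by 5. Of several probe sets for a gene, the brightest by mean log2 signal was used. Names containing _s_at or _x_at mark probe sets that may match several transcripts; those of ACA1 and ACA7 are of neither kind. Python 3.11.15, numpy 2.4.6, pandas 2.3.3 and scipy 1.17.1 were used, and the calls and distances were tested on simulated data. Changes were planted there only in genes with mean signals well above the floor. Genes with most signals near or below the floor, such as ACA1, were thus not covered. Genes were named by rule: ACA1, ACA7, OsCPK21, every measured ACA gene, list members past 2-fold between genotypes, and the 5 nearest named genes; the genome neighbours, the other list members and the dimmer probe sets were added after values were seen. The members, lists and markers were chosen with earlier results of these data known. List matches named for another kind of protein were removed by hand. Alternatives were 2 scalings, 2 treatments of low signals, the mean of a gene's probe sets, and leaving out cross-matching probe sets.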

Additional observations from a re-analysis of the deposited data

Results flagged for a closer look

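The dimmer of the ACA8 probe sets, which the gene counts leave out because a brighter one stands for the gene, had a log2 ratio of RNAi over ZH11 at stage 9 of 1.91, a bound, since the ZH11 signal was below the floor. It was picked out because it shows a signal that the brighter probe set, with a log2 ratio of -0.04, does not. Over 2224 genes with several probe sets above the floor, the log2 ratios of probe sets of 1 gene had an SD of 0.28 at stage 9.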

How the results depend on the processing

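Over the 6 alternatives, ACA1 stayed lower in RNAi at stage 12 (log2 ratio -5.57 to -4.72, the latter with the floor 2 times as high, as that signal then lies below the floor) and ACA7 stayed higher in RNAi at stage 9 (2.63 to 2.77). Calcium transport, calmodulin and P-type ATPase genes higher in RNAi at stage 12 went from 0 to 1, ACA7, with all arrays brought to 1 median and after quantile normalization. These scalings also moved the higher genes from 28.9% of all genes called at stage 12 to 41.2% and 39.4%. In RNAi, 5 of the 16 listed genes above the floor were lower at stage 12 than at stage 9, where 15.8% of 16056 genes were lower. Under both scalings 2 listed genes were lower, ACA7 and CAM2, while the count over all genes went from 2535 to 2264 and 2306. Listed genes higher at stage 12 in RNAi, where 14.9% of all genes were higher, went from 1, HMA5, to 0 with the floor 2 times as high. Of 5 named genes nearest to ACA1, 2 remained with a pseudocount and 4 or 5 under the other settings, and for ACA7 4 or 5 remained under each. Where 4 remained for ACA7, the gene lost was OsPM19L1, the nearest one. No paired analysis was possible because each group held 1 array. Without detection calls, values near the floor, such as ACA1 in RNAi at stage 12, depend on where the floor is set.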
